A study of Drosophila melanogaster with 36 samples.

Results

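Whole-head RNA of flies that carried the Gal4 driver alone was sequenced before and 7 days after their olfactory appendages had been cut off, and these 6 libraries, 3 per condition, are the subject of what follows. They were selected by label, as the input libraries of the background genotype, out of 36 libraries in 12 groups of 3. Every one of the 17611 counted genes was considered, and 10437 passed the filter on low counts and were tested. The experiment around them was a translating ribosome affinity purification (TRAP) study of olfactory sensory neurons: ribosomes tagged with GFP in the neurons that express Orco were pulled down from head lysates, and a small share of each lysate was kept as input. The background flies (w; orco-Gal4/+) had neither the UAS-GFP::RpL10Ab ribosome tag nor UAS-dnmnat, so the driver, which is active in Orco neurons, had no UAS target in them. The wild type flies added 5xUAS-GFP::RpL10Ab/+ to the driver, and the dnmnatOE flies added the tag and 5xUAS-dnmnat, which overexpresses the axon-protective NAD synthase dNmnat in the same neurons. Injury was the removal of the antennae and maxillary palps of both sides, and libraries were made without injury or 7 days post ablation (dpa). Heads of 300 adults were collected per genotype and condition. The paper's methods give the age of flies at ablation only as a range of days. The sources used here give neither the age of the uninjured flies at collection nor the sexes in each pool. Where age differed between the conditions, age and injury cannot be told apart. The labels describe the 3 libraries of a group as technical replicates of 1 pool, so the p-values measure the spread between libraries and not that between animals.

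The antenna is the main olfactory organ of the fly. Its sensory neurons sit in hair-like sensilla whose support cells secrete odorant-binding proteins and odorant-degrading enzymes into the lymph around the dendrites, and its base holds Johnston's organ, the hearing and gravity sense. Removing the appendage takes away the cell bodies and the support cells and leaves severed axons in the brain, which degenerate by the dSarm-dependent programme that dNmnat holds back and are cleared by glia through the receptor Draper. A cut through the cuticle also engages hemocytes, the phagocytic blood cells, together with melanization and the antimicrobial response of the fat body.

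The uninjured background libraries held 13613698 to 20552498 counts on genes and the injured ones 6628633 to 7414020, fewer than any of the other 12 inputs (14388303 to 22329307). Levels are therefore given as CPM, counts scaled to a library of 1000000 counts, scaled with the trimmed mean of M-values (TMM). The labels name olfactory sensory neurons as the cell type, but an input is RNA of the whole head: the 16 photoreceptor markers summed to 50062 to 50710.1 CPM in the uninjured libraries and 40087 to 41948 CPM at 7 dpa, and the 15 fat body markers to 63882 to 64344 CPM and 75469.9 to 86888 CPM, whereas Orco, the co-receptor of most olfactory neurons, stood at 15.8 CPM before injury. In a bulk sample fewer cells of a type and less RNA per cell cannot be told apart. The share of counts on mitochondrial genes was 7% to 8.94% before injury and 2.83% or less in injured replicates 1 and 2, against 6.4% in injured replicate 3.

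Across all genes, 1043 rose (9.99% of those tested) and 548 fell (5.25%) at 7 dpa, where a call needed an adjusted p no greater than 0.05 in edgeR's quasi-likelihood test (Benjamini-Hochberg over all genes) together with a change past 0.6 on the log2 scale. The median log2 fold change over all tested genes was 0.01. Of the calls 65.6% were rises, and with upper-quartile in place of TMM scaling, which moved the median of all genes to -0.11, there were 793 rises and 834 falls, or 48.7% rises. All fold changes below are on the log2 scale with their standard error (SE), and the 3 values of a condition are those of replicates 1, 2 and 3.

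The deepest falls included many transcripts known from the antenna. Of the 31 odorant-binding protein (Obp) genes tested, 20 fell and none rose, and their median was -1.12 against 0.01 over all genes. In 21 of the 31 every injured library lay below every uninjured one, against 19.6% over all tested genes. Obp83a, which encodes an abundant binding protein of trichoid sensilla (3R, 5972155 to 5975245, Drosophila Release 6), read 82.9, 85.7 and 78.4 CPM before and 2.21, 0.123 and 1.08 CPM after ablation, leaving 1.38% of its level (log2 fold change -6.17 ± 0.33, adjusted p = 4.76e-13). The injured libraries differed more among themselves than the uninjured ones, with replicate 2 lowest, and the conditions were far apart. Obp28a fell from 38, 44.4 and 42.6 CPM to 0, 0.123 and 1.89 CPM (log2 fold change -6.02 ± 0.56, adjusted p = 6.54e-07). Obp19a read 12.1, 21.5 and 15.9 CPM before and 0, 0.123 and 0.674 CPM after injury (log2 fold change -5.98 ± 0.46, adjusted p = 2.98e-15). In each of these 2 genes replicate 3 kept the most transcript of the injured libraries, and in each replicate 1 had no count.

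Obp59a, Obp83b and Obp69a fell by a similar depth, to log2 fold changes of -5.67, -5.26 and -4.46, and kept 1.89%, 2.56% and 4.61% of their uninjured means. For Obp84a the 3 injured libraries held 3 counts in all against 480 before injury, a ratio of 60.6 with a 95% counting interval of 20.6 to 295 (exact binomial, counting error only). Among the smaller changes, chosen after their values were seen, Obp56d, a binding protein also of taste organs, went from 547 ± 4.16 to 272 ± 23.4 CPM (mean ± SD, n = 3; log2 fold change -1.01) and Obp44a, a glial binding protein, from 302 ± 9.64 to 143 ± 28.4 CPM (-1.08). The Obp list as a whole summed to 3640.5 to 3725 CPM before and 1652 to 1892 CPM after ablation.

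Other secreted and enzymatic products of the antenna fell with them. The antennal protein a5, a relative of the phosphatidylethanolamine-binding proteins (2L, 1329161 to 1329993), was at 15.9, 12.3 and 13.4 CPM before injury and had no count in any injured library, so that it was at least 36.4-fold lower against a floor of 3 counts per library (adjusted p = 2.1e-15). The antennal protein a10, of the chemosensory protein family (3L, 17023123 to 17023741), read 73.9, 77.5 and 70.3 CPM and then 1.35, 1.72 and 2.29 CPM (log2 fold change -5.37 ± 0.21, adjusted p = 1.7e-27). Its injured libraries agreed closely, at 1 to 3 CPM. Os-C, a small secreted antennal protein that overlaps Sfp84E in the annotation, fell from 70.8, 66 and 73.3 to 2.21, 0.616 and 0.270 CPM (-6.05, adjusted p = 1.75e-07). Antdh, an antennal short-chain dehydrogenase, read 42.4, 42.3 and 40.1 CPM before and 5.65, 4.31 and 4.31 CPM after (log2 fold change -3.12 ± 0.29, adjusted p = 2.5e-09). Jhedup, an odorant-degrading esterase, went from 17.1, 20 and 21.2 to 1.47, 0 and 2.56 CPM (log2 fold change -3.87 ± 0.86, adjusted p = 0.00383), and DESeq2 gave it an adjusted p of 0.0537. Over the 13 tested perireceptor genes 7 fell and 1 rose, the P450 gene Cyp28d1, named after its values were seen (log2 fold change 0.88).

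Of the 31 glutathione S-transferase genes, detoxifying enzymes of which some break down odorants, 8 fell and 2 rose, and the falls differed in depth. GstE4 was the extreme case, with 23.6, 23.6 and 22.7 CPM before injury and 0.123, 0 and 0.135 CPM after it, a total of 2 counts against 1462 (ratio 277, 95% counting interval 76.5 to 2287, adjusted p = 2.87e-16). GstD8, GstD11 and GstE5 kept 7.60%, 9.28% and 19.4% of their means. The members of this family are close in sequence, and how reads shared between copies were counted is not given in the sources used here. CG14142, an uncharacterised gene among the 12 deepest falls, kept 5.26% (-4.24, adjusted p = 7.77e-10), and Acsx2, annotated by name as an acyl-CoA synthetase, went from 17.8 ± 1.84 to 1.07 ± 0.812 CPM (-4.02, adjusted p = 4.77e-06).

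The receptors themselves were sparsely counted in whole heads. Orco (3R, 5407183 to 5412406) read 15.3, 15.9 and 16.3 CPM before and 2.09, 2.34 and 2.16 CPM after ablation, 13.9% of its uninjured level (log2 fold change -2.85 ± 0.46, adjusted p = 4.77e-05). The 3 injured libraries were nearly equal, so the remaining counts were not the product of 1 library. Of the 60 odorant receptor genes 20 could be tested and 4 fell, Orco, Or85e, Or59b and Or47b. The last 3 had no count at 7 dpa and were at least 5.22-, 4.02- and 2.06-fold lower, and the call of Or47b was lost on leaving out uninjured replicate 1 or 3 or any injured library (adjusted p up to 0.122). The median over the tested receptors was -1.13, and it was -0.28 once the 6 genes at 0 in 1 condition took their bounds. Of 13 tested antennal ionotropic receptors, the second family of odour receptors, 2 fell. Ir76b, a co-receptor, changed by -1.16 on the log2 scale (adjusted p = 0.0258), while Ir64a, an acid sensor, was at least 2.13-fold lower. Each of these 2 calls was lost on leaving out any of several libraries (adjusted p up to 0.107 for Ir76b without uninjured replicate 3 and 0.123 for Ir64a without injured replicate 1).

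Genes of Johnston's organ and of the sensory cilium mostly missed the test. Of 24 tested members 20 had log2 fold changes below 0 (median -0.82, or -0.68 with bounds) and 1 passed the test. That gene was Dhc93AB, an axonemal dynein heavy chain of the auditory neurons, at 10.2, 9.42 and 10.4 CPM before and 4.05, 2.59 and 5.93 CPM after injury (log2 fold change -1.26 ± 0.38, adjusted p = 0.00831). It did not pass without injured replicate 2 (log2 fold change -1.0, adjusted p = 0.0824). The list summed to 96.5 to 101 CPM before and 78.5 to 88.3 CPM after ablation.

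**Figure D1:**
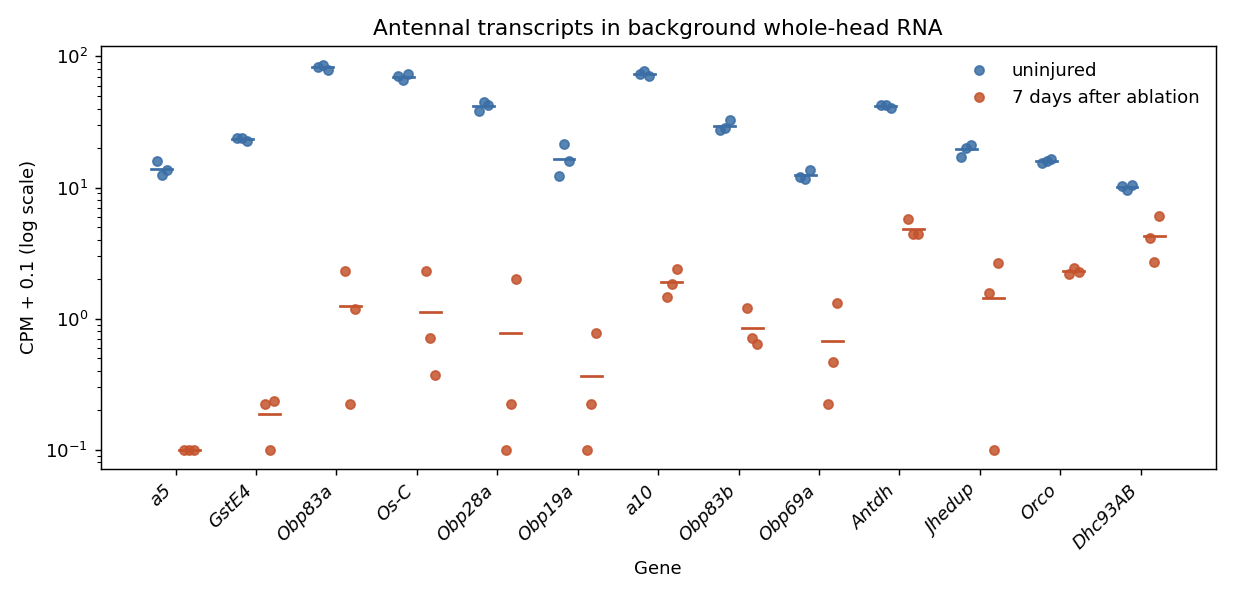
Levels of 13 antennal transcripts in the 6 background whole-head libraries, in CPM plus 0.1 on a log scale. Each point is a library (blue uninjured, red 7 dpa) and each bar a mean of 3. All 13 were taken from the genes that fell, so their shared direction follows from that choice. Every injured point lies below every uninjured point, and a5 falls to 0 counts while Dhc93AB keeps 42%.

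Neuropeptide transcripts formed another large group that fell. Of 33 tested genes 18 fell and 1 rose, and the summed level went from 2202 to 2346 CPM to 1099 to 1108 CPM. Nplp3, annotated as a neuropeptide-like precursor, was the most abundant of the deep falls, with 287, 277 and 314 CPM before and 33, 44.5 and 36 CPM after injury (log2 fold change -2.95 ± 0.20, adjusted p = 5.92e-09). Every injured library was far below every uninjured one. Dsk, the fly relative of cholecystokinin and a satiety signal, fell from 57.7, 61.1 and 70.4 to 16.6, 17.7 and 16.9 CPM (-1.89, adjusted p = 1.61e-12). Ilp3 and Ilp5, insulin-like peptides of the median neurosecretory cells, fell with log2 fold changes of -1.78 and -1.62 (adjusted p = 1.31e-04 and 7.27e-04). Pdf, the circadian output peptide, read 76.8, 93.9 and 94.4 CPM and then 38.4, 39.9 and 36.5 CPM (-1.20, adjusted p = 1.99e-09). The gene that rose was Ilp6, an insulin-like peptide of the fat body (0.72, adjusted p = 2.27e-04).

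Other neuronal and glial markers mostly stayed within the fold threshold. The 14 neuronal markers mixed pan-neuronal genes with genes of single transmitter types. Of these 14, 1 fell, Gad1, the GABA-synthesising enzyme (-0.68, adjusted p = 1.25e-10), which is not pan-neuronal, and the median was -0.35. The log2 fold change was below 0 in 13 of them, in 10 every injured library lay below every uninjured one (against 19.6% over all tested genes), 9 were lower at the adjusted p alone, and 3 fell with upper-quartile scaling. Of the 16 photoreceptor markers 2 fell: Arr1, an arrestin that switches off rhodopsin, read 4132, 4097 and 4187 CPM before and 2095, 2103 and 1986 CPM after injury (-1.01, adjusted p = 4.32e-24), and ninaC, a myosin of the light-sensing rhabdomere, had a log2 fold change of -0.69. At the adjusted p alone, with no fold threshold, 8 of the 16 were lower and 1 was higher. Of 13 glial markers 1 rose, near the 9.99% over all tested genes, and none fell. That gene was moody, a receptor of the glia that form the blood-brain barrier (1.18, adjusted p = 7.74e-13). At the adjusted p alone 2 glial markers were higher and 3 lower. Of 14 muscle markers none passed both thresholds in edgeR or in DESeq2. At the adjusted p alone 1 was higher and 4 were lower in edgeR, and 1 with a positive and 5 with a negative log2 fold change had an unadjusted p under 0.05 in edgeR.

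Nuclear genes of the respiratory chain were lower as a family by small steps. Of 62 tested members 21 fell, none rose and 58 had log2 fold changes below 0 (median -0.49). ND-MLRQ, a complex I subunit, went from 75.9, 80.5 and 87.9 to 38.9, 27.4 and 34.4 CPM (-1.28, adjusted p = 1.35e-10). UQCR-11 of complex III, ND-AGGG of complex I and COX8 of complex IV had log2 fold changes of -1.07, -1.03 and -0.95. The 12 tested genes encoded in the mitochondrial genome had a median of -0.60 and 3 fell, mt:ND4L and mt:ND3 of complex I and mt:CoII of complex IV (log2 fold changes -1.85, -0.94 and -0.60). That number rested on 1 library, as 12 fell without injured replicate 3 and 1 without injured replicate 1. The mitochondrial share of counts given above sums the counts on mitochondrial genes, these 12 among them, so it is no separate observation. With mitochondrial genes removed before scaling, 1034 of all tested genes rose and 555 fell.

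**Figure D2:**
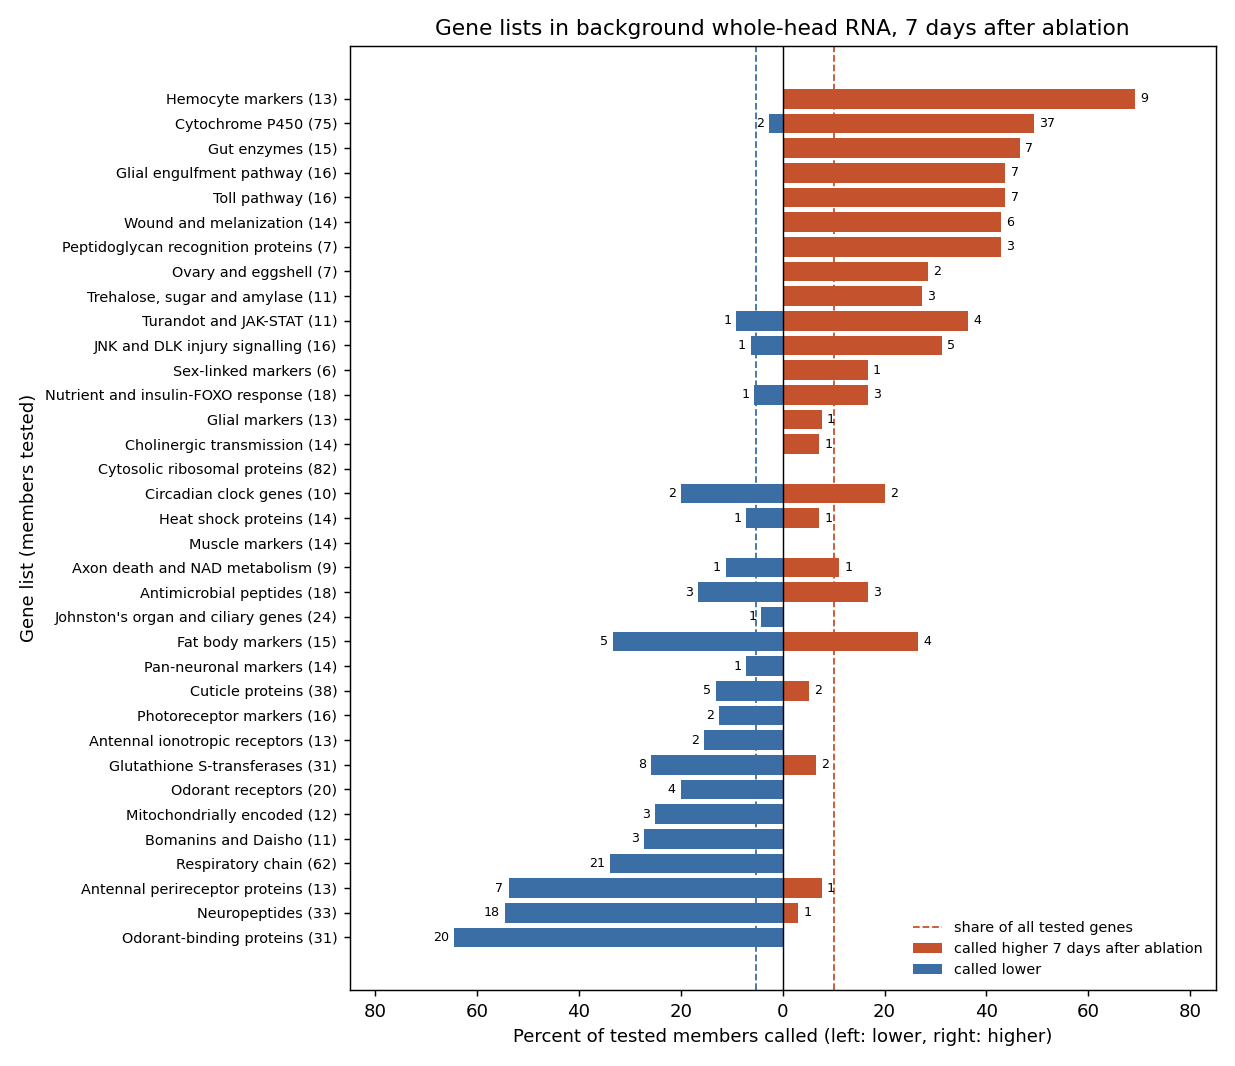
Percent of the tested members of each gene list that rose (red, right) or fell (blue, left) at 7 dpa in background whole-head RNA, for lists with at least 5 tested members (the number in parentheses) and the number called beside each bar. The dashed lines mark the shares over all tested genes, 9.99% higher and 5.25% lower; odorant-binding proteins and neuropeptides lie at the lower end and hemocyte markers and P450 genes at the upper end.

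Most hemocyte markers rose. Of 13 tested hemocyte markers 9 rose and none fell, and the median of the list was 1.16 on the log2 scale. In 11 of the 13 every injured library was above every uninjured one, against 23.1% over all tested genes, and the summed level went from 443 to 463 CPM to 1212 to 1305 CPM. The phagocytic receptor eater read 6.36, 7.82 and 6.13 CPM before and 48.4, 43.2 and 61.5 CPM after ablation (log2 fold change 2.90 ± 0.13, adjusted p = 8.92e-21). NimC1, the plasmatocyte receptor known as the P1 antigen, read 12, 11.5 and 10.9 CPM and then 62.1, 56.1 and 56.6 CPM (log2 fold change 2.34 ± 0.11, adjusted p = 1.45e-23). In both genes the injured values were several times the uninjured ones in each library. Sr-CI, a scavenger receptor, rose 5.57-fold (log2 fold change 2.48 ± 0.08, adjusted p = 7.04e-30). Col4a1, a collagen IV chain of basement membranes, was the most abundant member, at 142, 146 and 146 CPM before and 501, 536 and 453 CPM after injury (log2 fold change 1.78 ± 0.06, adjusted p = 1.21e-28). Not every marker followed: chosen after their values were seen, PPO1, a prophenoloxidase of crystal cells, was at 18.2 ± 4.30 and 14.5 ± 2.27 CPM (mean ± SD, n = 3; -0.34, adjusted p = 0.155), and He (hemese), a surface protein of blood cells, was under 1 CPM in each condition.

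The glial engulfment and injury-signalling genes rose in part. The engulfment receptor drpr (3L, 1715595 to 1731107), known as Draper, read 47, 46.8 and 43.7 CPM before and 149, 134 and 127 CPM after ablation, a 2.99-fold rise (log2 fold change 1.58 ± 0.08, adjusted p = 8.22e-22). The libraries of the conditions did not approach each other. It overlaps CG12035, CG18171 and Oseg4 in the annotation, and whether counting used strand is not given in the sources used here. Of 16 tested engulfment genes 7 rose and none fell: Mmp1, a matrix metalloprotease that glia release after injury, rose 3.24-fold (log2 fold change 1.70 ± 0.13, adjusted p = 9.07e-15), Pvr, the PDGF and VEGF receptor homologue, 2.58-fold (1.37), and NimC4 (simu), a bridging phagocytic receptor also found on hemocytes, 9.30-fold from a low level of 0.933, 1.25 and 1.26 CPM to 10.2, 9.61 and 12.3 CPM (log2 fold change 3.22 ± 0.27, adjusted p = 1.09e-14). NimC4 overlaps nAChRalpha5.

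Of 16 genes of JNK and DLK signalling, a stress kinase pathway, 5 rose and 1 fell. Ets21C, a transcription factor induced by JNK, read 10.3, 12.1 and 14.6 CPM and then 51, 52.7 and 46 CPM (log2 fold change 2.02 ± 0.16, adjusted p = 5.42e-15), and it overlaps nAChRbeta3, a nicotinic acetylcholine receptor subunit that went from 42.3, 42.9 and 42.6 to 259, 260.5 and 223 CPM (log2 fold change 2.54 ± 0.12, adjusted p = 2.72e-11). With strand use unknown, the reads of these 2 genes cannot be fully told apart. nAChRbeta3 was the only one of 14 genes of cholinergic transmission to be called, and the median of that list was -0.14. Gadd45, a stress-induced activator of JNK signalling, rose by 0.95 on the log2 scale (adjusted p = 2.87e-06), as did msn, a kinase upstream of JNK, by 0.67. The rise of msn dropped under the fold threshold with upper-quartile scaling (0.55) and without injured replicate 3 (0.60). The gene that fell was bsk, JNK itself (-0.63, adjusted p = 4.58e-04), named after its values were seen, and no gene of the list was called lower without uninjured replicate 3 or without injured replicate 1.

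Among the axon death genes, Sarm, the NAD hydrolase dSarm that executes axon degeneration, had a log2 fold change of 0.63 ± 0.07 (adjusted p = 4.34e-11), from 244 ± 15.1 to 378 ± 22.6 CPM (mean ± SD, n = 3). Its call was at the edge of the fold threshold and was lost with upper-quartile scaling (0.51), without uninjured replicate 3 (0.60) and without injured replicate 1 (0.60), and the gene overlaps 7 others. Nmnat, the endogenous gene of dNmnat, stood at 27.9, 24.5 and 26.3 CPM before and 27, 27.6 and 18.5 CPM after injury, ranges that overlap (log2 fold change -0.10 ± 0.18, adjusted p = 0.755). Naam, a nicotinamidase that feeds NAD salvage, fell from 15.6, 14.9 and 18.3 to 5.89, 6.78 and 6.61 CPM (-1.34, adjusted p = 5.34e-05).

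Immune effectors did not move as a block. Of 18 tested antimicrobial peptide genes 3 rose and 3 fell, and the median of the list, 0.08, was -0.04 with upper-quartile scaling. AttD, an attacin with no signal peptide, rose from 0.509, 1.08 and 0.632 CPM to 16, 18.9 and 16.9 CPM and was the largest rise among genes with at least 50 counts on average (log2 fold change 4.51 ± 0.35, adjusted p = 1.03e-15). AttC, a secreted attacin, read 339.9, 352 and 337 CPM before and 1267, 1290.1 and 1184 CPM after ablation (log2 fold change 1.86 ± 0.06, adjusted p = 5.24e-30). Drsl5, of the drosomycin family, fell from 149, 126 and 159 to 28.9, 22.4 and 21.4 CPM (log2 fold change -2.57 ± 0.12, adjusted p = 4.27e-24). Drsl4 fell too (-1.76, adjusted p = 4.21e-05). Chosen after their values were seen, the diptericins DptA and DptB were at 174 ± 11.9 and 234 ± 8.0 CPM before and 182 ± 13.9 and 201 ± 13.3 CPM after injury (mean ± SD, n = 3; log2 fold changes 0.07 and -0.22, neither called), and metchnikowin, Mtk, went from 163 ± 13.3 to 82.9 ± 15 CPM (-0.97, adjusted p = 1.19e-10). Of 11 Bomanin and Daisho genes, short Toll-induced peptides, 3 fell and none rose: Dso2, BomS6 and Dso1, with log2 fold changes of -1.44, -1.21 and -0.89. All 11 had log2 fold changes below 0 (median -0.55). In 10 of them every injured library lay below every uninjured one, against 19.6% over all tested genes. At the adjusted p alone 6 were lower, and 7 fell with upper-quartile scaling.

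Upstream of the effectors, recognition and protease genes were higher. All 16 tested genes of the Toll pathway had log2 fold changes above 0 (median 0.58) and 7 rose. Among these nec, a serpin that restrains Toll activation, went from 154, 139.6 and 139 to 531, 521 and 426 CPM (log2 fold change 1.77 ± 0.09, adjusted p = 7.91e-14), grass and Hayan, serine proteases of the cascade, had log2 fold changes of 1.24 and 1.13, and GNBP3, a sensor of fungal glucans, 0.99. Of 7 peptidoglycan recognition proteins 3 rose: PGRP-LF, an inhibitor of the Imd pathway (log2 fold change 2.05), PGRP-SA, the Toll pathway sensor (1.80), and PGRP-LC, the Imd receptor (0.60), whose call was lost with upper-quartile scaling (0.49) and without uninjured replicate 1 (0.57), uninjured replicate 2 (0.59) or injured replicate 2 (0.56). PGRP-SC2, an amidase that dampens the Imd response, stood outside that list by its name and rose from 2.55, 2.46 and 1.58 to 22.4, 18.7 and 20.2 CPM (3.19, adjusted p = 7.68e-11). Of 14 wound and melanization genes 6 rose, among them yellow-f, a dopachrome conversion enzyme (1.79), Spn27A, a serpin that inhibits melanization (1.61), and Sp7, a melanization protease (1.16). Spn88Eb, a serpin, went from 48.7, 54.7 and 51.3 to 346, 325 and 339 CPM (2.71, adjusted p = 8.67e-16), and SPH93, a serine protease homologue, from 4.92, 3.84 and 5.05 to 71.2, 71.2 and 62.2 CPM (3.90, adjusted p = 2.39e-08).

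Of 11 genes of the Turandot family and the JAK-STAT pathway, which respond to stress and to cytokines, 4 rose and 1 fell. The receptor dome, its negative regulator et and the stress peptide TotM were among the rises (log2 fold changes 1.06, 1.79 and 1.06), and TotX fell from 4.67, 6.31 and 4.86 to 3.68, 1.36 and 1.62 CPM (-1.24, adjusted p = 0.00275). Among the other largest rises, Rsod, a relative of superoxide dismutase, went from 3.61, 3.58 and 2.21 to 24.7, 24.5 and 29.9 CPM (log2 fold change 3.04 ± 0.18, adjusted p = 1.27e-19). Skel rose 7.77-fold, CG9701 14.6-fold and CG16826 11.1-fold (adjusted p = 5.02e-26, 3.96e-09 and 1.07e-09).

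**Figure D3:**
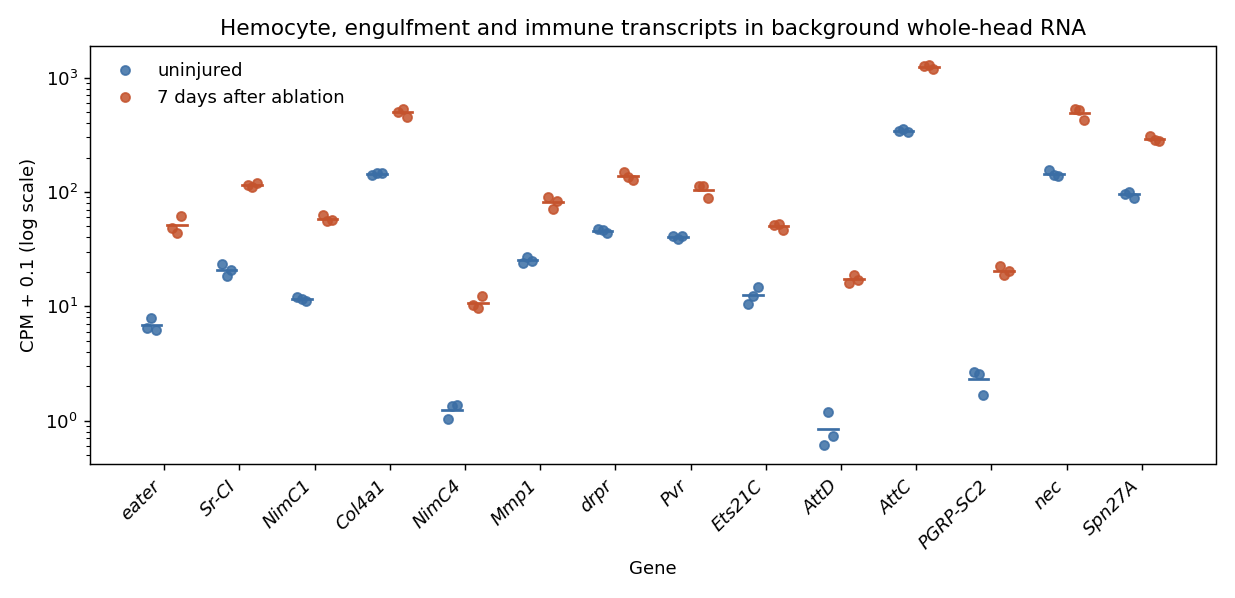
Levels of 14 transcripts of hemocytes, engulfment and immunity in the 6 background whole-head libraries, in CPM plus 0.1 on a log scale. Each point is a library (blue uninjured, red 7 dpa) and each bar a mean of 3. All 14 were taken from the genes that rose, so their shared direction follows from that choice. Immune genes that fell, such as Drsl5 and Drsl4, are not shown.

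Many cytochrome P450 genes, monooxygenases of detoxification and of hormone and hydrocarbon metabolism, rose. Of 75 tested members 37 rose (against 9.99% over all genes) and 2 fell, and the summed level went from 2425 to 2546 CPM to 4488 to 4548 CPM. Cyp304a1 read 10.3, 9.76 and 9.48 CPM before and 132, 127 and 108 CPM after injury (log2 fold change 3.63 ± 0.09, adjusted p = 9.83e-34). Cyp6d2 rose 8.91-fold (3.16), Cyp9h1 3.73-fold (1.90) and Cyp4ad1, at under 2 CPM, 7.52-fold (2.83). Cyp4g1, the hydrocarbon-forming P450 of oenocytes, cells of the abdominal and head cuticle, went from 143, 142 and 131 to 392, 393 and 389 CPM (log2 fold change 1.5 ± 0.07, adjusted p = 1.29e-20). Of 11 genes of sugar digestion and transport 3 rose, Amy-d and Amy-p, the nearly identical amylase copies between which reads cannot be surely divided, and Mal-B2, a maltase (log2 fold changes 1.99, 1.81 and 0.78).

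Fat body genes split into both directions. Of 15 markers 4 rose and 5 fell. Lsp1beta, a hexamerin storage protein, read 613, 615 and 609 CPM before and 177, 182 and 137 CPM after injury (log2 fold change -1.89 ± 0.07, adjusted p = 2.68e-27). The feeding-regulated gene to (takeout) fell from 451, 457 and 414 to 150.1, 132 and 153 CPM (log2 fold change -1.60 ± 0.07, adjusted p = 1.15e-24), and fit, a satiety signal that is higher in females, from 37.1, 35.8 and 40.9 to 8.35, 10.6 and 6.61 CPM (log2 fold change -2.15 ± 0.22, adjusted p = 6.42e-12). The injured values of all 3 genes were below every uninjured value. The rises were Cyp4g1, Yp2 and, named after their values were seen, Mtp and Apoltp, which assemble and carry lipoprotein (log2 fold changes 1.40 and 1.11). Cyp4g1 is the oenocyte gene described above and is counted in the P450 list too, so it is not a marker of fat body alone.

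Markers of tissues outside the head moved with the rises, and their part in those results was not tested. The eggshell gene dec (dec-1, X, 7867161 to 7873222) had no count in any uninjured library and read 7.86, 10.6 and 11.5 CPM at 7 dpa, so that it was at least 67-fold higher (adjusted p = 1.29e-20), from 235 counts over the 3 libraries. Of the 15 ovary and eggshell genes 7 could be tested and 2 rose, dec and Cp36. Cp36, a chorion protein, had 8 counts in the injured libraries and none before. The list summed to 5.96 to 9.67 CPM before and 16.5 to 20.1 CPM after injury, and 4 of its 15 members had no count in any of the 6 libraries. Of the 15 tested gut enzymes 7 rose and none fell, the list summed to 85.7 to 90.9 CPM and 291 to 358 CPM, and 9 of 27 had no count. Most of that sum was amylase: Amy-d read 57.9, 60.4 and 56 CPM before and 241, 252 and 198 CPM after injury (log2 fold change 1.99 ± 0.12, adjusted p = 7.71e-11), while the intestinal proteases Jon65Aiii, Jon65Aiv, Jon25Biii and Jon99Fii stayed under 2 CPM on average, and the calls of the last 3 were lost on leaving out single libraries (adjusted p up to 0.101, 0.0531 and 0.239). For Jon25Biii these were uninjured replicates 1 and 2, and for the others they included libraries of each condition. Of 19 genes of the male reproductive tract 1 could be tested and 13 had no count.

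Sex-linked transcripts were measured since the sexes in each pool are not given. The male-specific roX1 RNA read 269.6, 260.1 and 264 CPM before and 158, 174 and 214 CPM after injury (log2 fold change -0.54 ± 0.08, adjusted p = 1.83e-07), short of the fold threshold of 0.6, and passed that threshold with upper-quartile scaling (-0.66) and without injured replicate 3 (-0.67). The roX2 RNA, at -0.61 on the log2 scale, did not pass (adjusted p = 0.107), but did with upper-quartile scaling (-0.73, adjusted p = 0.0454) and with the 6 background inputs fitted alone (-0.63, adjusted p = 0.0296). Of the yolk protein genes, expressed in the female fat body, Yp2 and Yp3 were higher at the adjusted p and Yp1 showed no clear change. Yp2 rose from 11570.1, 11833 and 11629 to 21458, 21460.1 and 18899 CPM (log2 fold change 0.82 ± 0.05, adjusted p = 1.3e-20). Yp3, at 0.55 on the log2 scale, was under the fold threshold (adjusted p = 2.59e-11) and passed it without injured replicate 3 (0.63). The value of Yp1 was -0.02 (adjusted p = 0.860). The part of the sexes in these values was not tested. The white gene w, whose mutation marks the strains, was at 9.42 ± 2.32 and 8.19 ± 2.88 CPM (mean ± SD, n = 3; adjusted p = 0.641).

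Set beside the other genotypes, the injured background level of several of these transcripts was near or below that of uninjured wild type flies. For eater the uninjured wild type libraries read 62.5, 59.8 and 64.2 CPM, and for NimC1 62.4, 59.9 and 67.3 CPM. For dec they read 14.6, 15.5 and 17.3 CPM, all above the injured background. Cyp4g1 stood at 420.5, 409.9 and 424 CPM in them, also above each injured background library, and Cyp304a1 at 349, 356 and 359 CPM. Not every rise did so: SPH93 read 1.97, 2.01 and 6.35 CPM in uninjured wild type libraries, far below its injured background level. Uninjured dnmnatOE libraries were low for these genes. They read 4.65, 2.47 and 3.73 CPM for eater, 3.24, 2.99 and 4.34 CPM for NimC1 and 15.2, 21.3 and 14.5 CPM for Cyp4g1, and held no count of dec. Injured wild type libraries held 455 ± 6.12 CPM of eater, 397 ± 14.7 CPM of NimC1, 88.2 ± 2.45 CPM of dec and 3667 ± 31.7 CPM of Cyp4g1 (means ± SD, n = 3). In injured dnmnatOE libraries eater was at 306 ± 26.7, dec at 30.6 ± 10.8 and Cyp4g1 at 5221 ± 99 CPM, but NimC1 at 5.73 ± 1.04 CPM. These levels were not tested between genotypes.

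**Figure D4:**
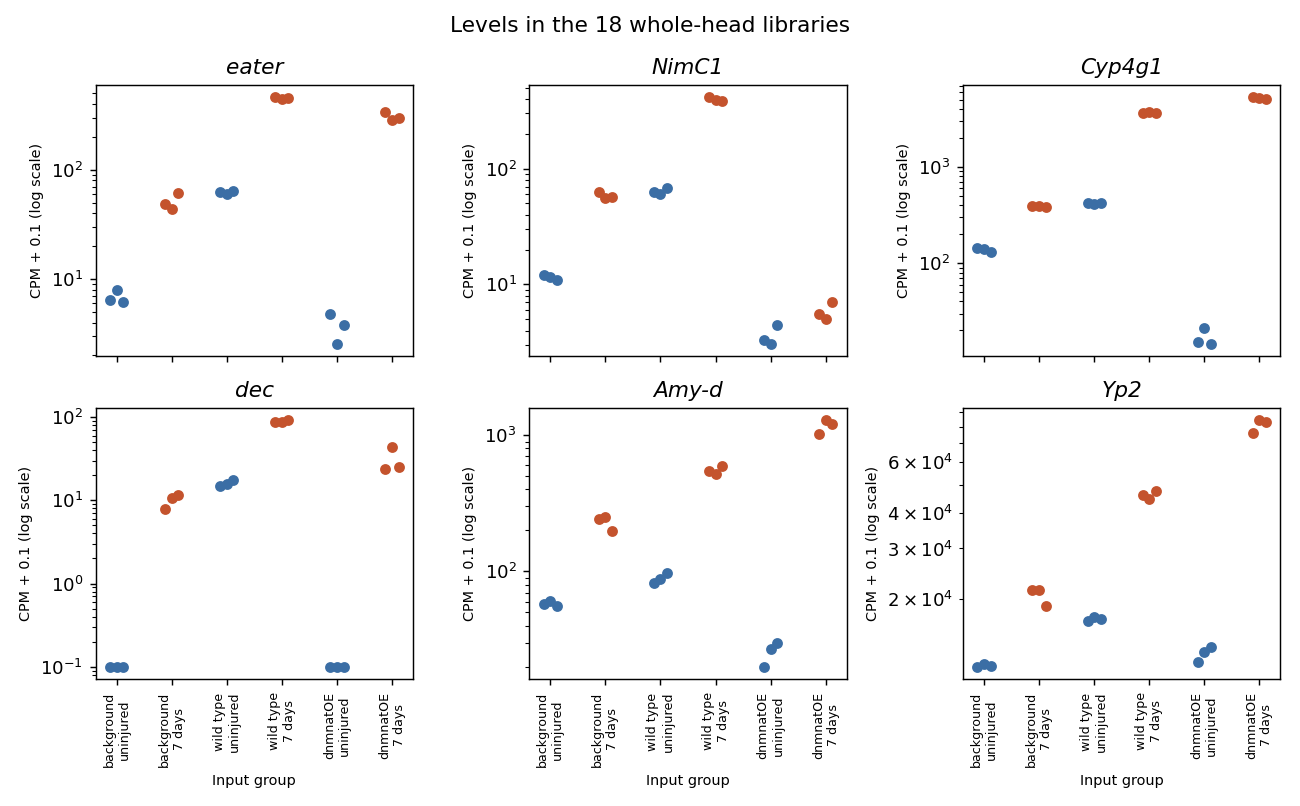
Levels of 6 transcripts in all 18 whole-head inputs, by genotype and condition, in CPM plus 0.1 on a log scale (blue uninjured, red 7 dpa; each point is a library). All 6 were taken from the genes that rose in the background, so the injured background libraries lie above the uninjured ones by that choice. The uninjured wild type libraries are near or above the injured background for eater, NimC1, Cyp4g1 and dec and below it for Amy-d and Yp2.

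Whether the response to injury itself differed was asked with interaction terms in the same fit, which contrast the change in background flies with that in wild type or dnmnatOE flies. Against wild type 717 genes differed (6.87% of those tested), of which 202 had the higher log2 fold change in the background and 515 the lower one. Against dnmnatOE 3538 genes differed (33.9%), 1515 higher and 2023 lower. The split by direction depended on the scaling: with upper-quartile scaling 286 genes were higher and 388 lower than in wild type, and 2056 higher and 1543 lower than in dnmnatOE flies, where that scaling moved the median difference over all genes from -0.03 to 0.19. These contrasts share the 6 background libraries, so they are given side by side and are not independent of each other. In wild type flies 1863 genes rose and 1113 fell, and in dnmnatOE flies 2766 and 2527.

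Antimicrobial peptide genes were among those that differed. Of 18 tested, 11 had a lower change in background than in wild type flies and none a higher one, while against dnmnatOE flies 8 were lower and 3 higher. Over all 10437 tested genes 515 were lower and 202 higher than in wild type flies. Against dnmnatOE flies 2023 were lower and 1515 higher, and the 3 higher peptide genes are near that last share. The list's median was 0.08 in background, 2.06 in wild type and 0.79 in dnmnatOE flies. AttC rose in all 3 genotypes, by 1.86, 3.81 and 4.42 on the log2 scale (background minus wild type -1.95, adjusted p = 2.96e-23). The uninjured AttC level was higher in the background (339.9, 352 and 337 CPM) than in wild type flies (68.6, 71.6 and 78.1 CPM). At 7 dpa the background was also the higher, at 1267, 1290 and 1184 CPM against 1024, 1029 and 1001 CPM. These levels were not tested between genotypes. The elevated-during-infection gene edin, an immune-induced secreted peptide, read 17.1, 15.1 and 15.9 CPM before and 60.7, 58.2 and 53.1 CPM after injury in the background, a log2 fold change of 1.84 against 4.63 in wild type and 3.32 in dnmnatOE flies (difference from wild type -2.79, adjusted p = 1.31e-12). Chosen after their values were seen, DptA, Dro and Mtk had log2 fold changes of 0.07, -0.39 and -0.97 in the background and 2.60, 1.88 and 1.08 in wild type flies (differences with adjusted p = 4.91e-20, 3.21e-17 and 2.12e-15). AttD had log2 fold changes of 4.51, 4.10 and 2.87 in background, wild type and dnmnatOE flies (difference from wild type 0.42, adjusted p = 0.677).

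Hemocyte and P450 genes showed the same comparison in more detail. Over all tested genes 6.87% differed from wild type and 33.9% from dnmnatOE flies in either direction. Of 13 hemocyte markers 7 changed less in the background than in wild type flies and 11 less than in dnmnatOE flies, with 1 changing more than in dnmnatOE flies. Col4a1 had log2 fold changes of 1.78, 2.55 and 5.15 in background, wild type and dnmnatOE flies (differences -0.77 and -3.36). The change of eater was 2.90 in the background and 2.87 in wild type flies, with a difference of 0.03 (adjusted p = 0.957), and 6.38 in dnmnatOE flies. Of 75 P450 genes 21 changed less and 3 more than in wild type flies. Cyp304a1 was among those that changed more, with 3.63 in the background and 1.47 in wild type flies (difference 2.16, adjusted p = 7.14e-20), but 7.33 in dnmnatOE flies. Of 16 Toll pathway genes 5 changed less and 1 more than in wild type flies. For drpr the log2 fold changes were 1.58, 2.12 and 3.25 in background, wild type and dnmnatOE flies (background minus wild type -0.54, adjusted p = 5.45e-04).

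Among named genes that fell, Lsp1beta had log2 fold changes of -1.89 in the background, -0.56 in wild type and 0.36 in dnmnatOE flies (background minus wild type -1.33, adjusted p = 3.74e-15), and fit of -2.15, -0.22 and -1.10 (-1.93, adjusted p = 1.66e-06). Takeout, to, fell less in the background than in wild type flies (-1.60 against -2.31, difference 0.71, adjusted p = 4.92e-07). More a10 was left in the background, at 1.35, 1.72 and 2.29 CPM in injured background, 0.265, 0.484 and 0.104 CPM in injured wild type and 0, 0 and 0.0733 CPM in injured dnmnatOE libraries (background minus wild type 2.86, adjusted p = 8.83e-07; the dnmnatOE value rests on 1 count). The change of Orco was -2.85 in the background and -3.85 in wild type flies, a difference of 1.0 ± 0.64 that did not pass (adjusted p = 0.401). Of the 31 Obp genes 3 had a higher and 3 a lower log2 fold change in background than in wild type flies. Over all tested genes 6.87% differed from wild type in either direction.

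**Figure D5:**
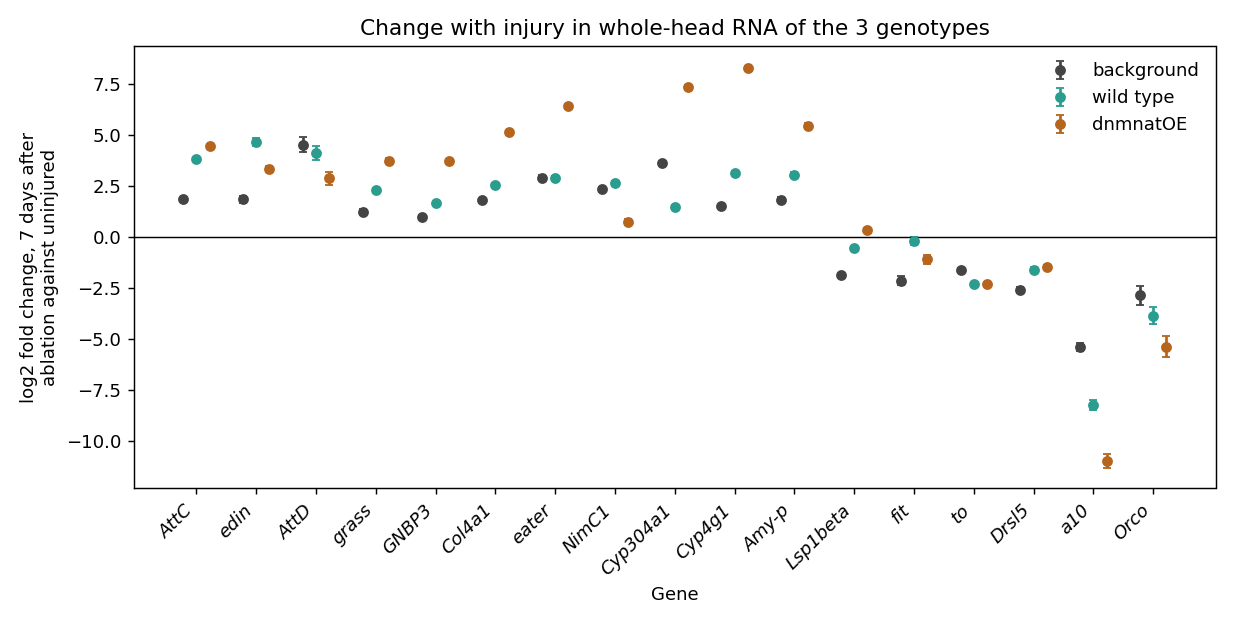
Log2 fold change at 7 dpa against uninjured, with its SE, of 17 genes in whole-head RNA of background (grey), wild type (green) and dnmnatOE (orange) flies. AttC, edin, grass, GNBP3, Col4a1 and Amy-p have smaller positive log2 fold changes in the background than in wild type flies, and Lsp1beta and fit have more negative ones. The level of AttC before injury was higher in the background than in wild type flies. The value of a10 in dnmnatOE flies rests on 1 count.

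The pulldowns of the same background lysates gave another readout, from other RNA of the same flies and not from other animals. Inputs were poly-A selected and pulldowns were not, so the library types compared here also differ. With no tagged ribosome in this genotype, the RNA was what the beads held without a tag, and the 6 libraries held 717185 to 1280180 counts on genes. Of 7213 genes tested there 186 were called (2.58%), 118 higher and 68 lower at 7 dpa. Of the 1254 input calls that could be tested in pulldowns 921 had the same sign and 96 were called in the same direction, which is 7.66% of those input calls and 51.6% of the pulldown calls, while 4 were called in the opposite direction. The share of same signs over all genes tested in both was not calculated, so the count of 921 has no share to set it against. The pulldowns had the higher spread between libraries, with a common biological coefficient of variation in edgeR of 0.460 against 0.198 for inputs. Genes that passed in both included Lsp1beta (log2 fold change -1.98 in pulldowns, adjusted p = 1.57e-08), Nplp3 (-3.38, adjusted p = 3.9e-06), to (-1.74, adjusted p = 2.84e-05), Spn88Eb (3.29, adjusted p = 1.8e-05), AttC (1.33, adjusted p = 3.05e-04), nAChRbeta3 (2.47, adjusted p = 0.00157) and NimC1 (2.99, adjusted p = 0.0291). Of 17 odorant-binding protein genes tested there 1 was called, Obp19d, named after its values were seen, which fell in inputs too (log2 fold change -1.05 in pulldowns, adjusted p = 0.00223, and -1.58 in inputs). Obp83a read -6.79 on the log2 scale there (adjusted p = 0.0969) and the engulfment receptor drpr 0.83 (adjusted p = 0.112), neither past the threshold.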

How the data were processed

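Background inputs (3 uninjured, 3 at 7 dpa) were analysed with the other 12 inputs in 1 fit, and the background pulldowns in a separate fit of the 18 pulldowns. The deposited values are raw read counts per gene, which the authors made, per their notes and methods, by trimming with Trimmomatic, aligning with Hisat2 to the fly genome, sorting with Samtools and counting with HTSeq-count; tool versions, counting mode and strand are not given in the sources used here. Inputs were 10% of each lysate, poly-A selected. Pulldown libraries were made without poly-A selection, and neither kind was depleted of ribosomal RNA. The 5 summary rows per file were left out of library sizes and tests; reads on no feature were 1.28% to 1.71% and ambiguous reads 2.83% to 3.18% in the background inputs, and 7.98% to 9.82% and 51.2% to 58% in the background pulldowns.

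Counts were filtered with filterByExpr, scaled with TMM and tested with edgeR 4.0.16 (R 4.3.3, limma 3.58.1) by robust quasi-likelihood fits with 1 coefficient per group, contrasts of 7 dpa against uninjured and interaction contrasts between genotypes. p-values were adjusted by Benjamini-Hochberg over all genes tested, and genes counted as called had an adjusted p no greater than 0.05 and a change past 0.6 on the log2 scale, the threshold of the study's methods. Without the fold threshold and without adjustment, 3723 genes had p under 0.05. Folds against a condition with no count were bounded with 3 counts per library (0.149 CPM uninjured, 0.381 CPM at 7 dpa). The scripts were tested on simulated data. Replicate libraries correlated at r = 0.966 to 0.976 (across genes) and differed by more than sampling noise (chi-square per gene 4.18 to 28.2), so each was counted.

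Gene lists and the rule for named genes (the 12 largest changes in each direction with at least 50 counts on average, up to 4 called members per list, 11 set genes, and the 5 largest per direction and interaction) were chosen with earlier results of these data known. Positions are from the Ensembl 115 annotation of Release 6, in which 17559 of 17611 genes were matched. Alternatives tried were DESeq2 1.42.0, its size factors, upper-quartile scaling, other filters and thresholds, a fit of the 6 libraries alone, removal of mitochondrial genes, a replicate block and leaving out each library. Thinning the uninjured libraries to the depth of the injured ones and leaving out pulldown libraries were chosen after seeing the data.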

Additional observations from a re-analysis of the deposited data

Results flagged for a closer look

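The values here are interaction terms, the log2 fold change with injury in background flies minus that in wild type or in dnmnatOE flies, and each gene below was singled out because that difference passed the test (edgeR's quasi-likelihood test, adjusted p no greater than 0.05, difference past 0.6). The background libraries enter both differences.

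Against wild type, the genes with the lowest differences were CG16904 (-3.55), CG9458 (-3.38), CG45045 (-2.88), edin (-2.79) and Osi8 (-2.75). CG45045 read 15.2, 15.1 and 17.2 CPM before and 10.7, 7.76 and 8.49 CPM after injury in the background, while its log2 fold change in wild type flies was 2.07, and Osi8, a gene of the Osiris family, went from 5.51, 4.10 and 1.71 to 0.982, 0.493 and 0.539 CPM in the background against a log2 fold change of 0.27 in wild type flies. The highest differences were those of dec (7.88), CG15570 (7.70), Srg2 (6.24), CG32834 (5.73) and CG31198 (5.45). These 5 had no count in the uninjured background libraries, so their fitted differences depend on the prior count and are no bound on the size. At 7 dpa they read 7.86, 10.6 and 11.5, 7.86, 12.2 and 12.3, 4.67, 4.68 and 4.45, 1.35, 1.23 and 0.539 and 2.70, 2.22 and 3.24 CPM in the background, in that order.

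Against dnmnatOE, the lowest differences were mthl8 (-8.79), Cyp4g1 (-6.77), CG15531 (-6.23), Sgp (-5.55) and CG16904 (-5.27), and the highest a10 (5.60), Obp59a (5.47), Acsx2 (4.88), CG34220 (4.82) and Obp83b (4.62). For mthl8 and Obp59a a dnmnatOE condition held no count, and these fitted values are no bound either. Those of a10 and Obp83b each rest on 1 count in 1 injured dnmnatOE library, so their size is uncertain. The gene mthl8, of the methuselah receptor family, was at 28.7, 33.2 and 27.5 CPM before and 26, 28.3 and 29.4 CPM after injury in the background, had no count in any wild type library, and read 3.48, 3.20 and 2.71 CPM in injured dnmnatOE libraries.

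For 19 further named genes both differences passed. Given first against wild type and then against dnmnatOE, the immune and stress genes had Drsl5 -0.98 and -1.11, AttC -1.95 and -2.56, PGRP-LF -0.68 and -2.36, TotM -0.91 and -2.26, grass -1.04 and -2.50, GNBP3 -0.64 and -2.71 and Rsod -1.04 and -3.45. For hemocyte, engulfment, JNK and melanization genes they were Col4a1 -0.77 and -3.36, Pvr -0.64 and -1.93, Ets21C -0.89 and -1.56 and Sp7 -0.74 and -2.36. For fat body, yolk and feeding genes they were fit -1.93 and -1.05, Lsp1beta -1.33 and -2.25, to 0.71 and 0.69, Yp1 -0.75 and -1.10 and Yp2 -0.62 and -1.84, and for sugar digestion Amy-d -0.65 and -3.54, Amy-p -1.23 and -3.61 and Mal-B2 -0.70 and -2.20. Of these 19 genes only to had a higher log2 fold change in the background than in the other genotypes.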

How the results depend on the processing

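The precision is limited by the lower depth of the injured libraries, by 3 libraries per condition that the labels call technical, and by unknown strand use for overlapping genes. Thinning the uninjured libraries to the depth of the injured ones, an alternative chosen after seeing the data, gave 1022 rises and 536 falls. DESeq2 gave 1075 and 562, of which 1562 were shared with the 1591 calls above, and the 6 libraries fitted alone gave 1008 and 737. Without a fold threshold the counts were 1812 and 1080, and with a log2 threshold of 1 they were 496 and 244. Upper-quartile scaling gave 834 falls and 793 rises, as its scaling moved the median of all genes to -0.11. Leaving out a library gave 956 to 1049 rises and 475 to 510 falls, 625 to 713 differences from wild type, 3282 to 3482 differences from dnmnatOE and 128 to 156 calls in pulldowns. DESeq2 called 294 genes in the pulldowns against 186, and the cause was not tested.

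The library numbers do not pair the samples (correlation of same-numbered deviations -0.00, 0.02 and -0.00). With the replicate block 1037 genes rose and 546 fell, and 196 genes were higher and 512 lower than in wild type, and 1507 higher and 2014 lower than in dnmnatOE flies; Ir64a and Jon99Fii then missed the threshold. Directions changed on leaving out a library for 3 genes that were not called: w (-0.490 to 0.0279), Nmnat (-0.204 to 0.0579) and Yp1 (-0.0588 to 0.0480). Of 121 named genes called in the background, 16 lost the call under some alternative other than the fold threshold of 1, and 15 on leaving out a library, among them CG45045, Cpr47Eb and Cpr76Bc beside those named above. Of the 20 largest interaction values, CG16904 against wild type (adjusted p up to 0.101) and Obp59a against dnmnatOE (up to 0.199) lost the call without single libraries. The median of the antimicrobial peptides was -0.04 with upper-quartile scaling, -0.03 with a mean of at least 50 counts and -0.05 without injured replicate 1.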

Other observations

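Several gene groups outside the antenna and immunity are given here for the background libraries. Over all tested genes 9.99% rose and 5.25% fell, and a count near these shares is no result about the group. Of 38 tested cuticle protein genes 5 fell and 2 rose. Cpr65Au went from 116, 115.1 and 114 to 37.6, 43.6 and 34 CPM (-1.58, adjusted p = 9.07e-15) and Cpr49Ag and Cpr76Bc had log2 fold changes of -1.56 and -2.08. Cpr47Eb had no count in the uninjured libraries and read 0.860, 0.862 and 1.62 CPM at 7 dpa, at least 7.48-fold higher. Of 10 circadian clock genes 2 rose, vri, a repressor of Clock transcription, from 103, 95.8 and 95.1 to 211, 222 and 223 CPM (1.16, adjusted p = 3.89e-17), and cwo, another repressor of the clock (0.86, adjusted p = 4.12e-08), while Pdf and to fell. The hours of collection are not given in the sources used here, so time of day and injury cannot be told apart for these genes.

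Of 18 genes of the nutrient and insulin response 3 rose and 1 fell, against 9.99% and 5.25% over all tested genes. FASN2, a fatty acid synthase, rose from 2.50, 1.73 and 2.08 to 7.86, 9.86 and 9.71 CPM (2.11, adjusted p = 7.11e-06), Lip4, a lipase, and Ilp6 had log2 fold changes of 1.22 and 0.72, and tobi, an insulin-responsive glucosidase, fell from 26.7, 22 and 17.6 to 7.37, 12.6 and 8.09 CPM (-1.25, adjusted p = 9.87e-08). Of 14 heat shock genes 1 rose and 1 fell, which is near the shares over all tested genes. These were Hsc70-3, the chaperone BiP of the endoplasmic reticulum (0.86, adjusted p = 5.66e-18), and DnaJ-1, a cytosolic co-chaperone (-0.80, adjusted p = 4.73e-06). None of the 82 tested cytosolic ribosomal protein genes was called by edgeR or DESeq2, and the median of the list was 0.14. At the adjusted p alone 35 were higher and 4 lower in edgeR. An unadjusted p under 0.05 was found in edgeR for 44 with a positive and 7 with a negative log2 fold change. In the background pulldowns 12 of 80 tested members were called higher and 0 lower.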
